A study of Saccharomyces cerevisiae with 10 samples.

Results

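Heat shock in XH7, the control strain of this series of the budding yeast Saccharomyces cerevisiae, is described here across every gene with enough counts to test. The members were chosen by sample group alone. They are 2 libraries of XH7 cells given 1 h at 50 °C and 2 libraries of XH7 cells labelled 30 °C, out of 10 libraries in all. Of the 6059 genes in the count table, 6015 passed the filter on low counts and were tested. The other 6 libraries hold Z100, an evolved strain that the labels call adaptive, with 3 libraries after 1 h at 50 °C and 3 at 30 °C. No allele, transgene or drug is given for any group, and temperature is the only labelled difference between the XH7 groups. The protocol text keeps unheated cultures in an ice-water mixture, so 30 °C is used below as the name of a label. No label tells if the 2 libraries of a group had their own cultures. The p-values therefore speak of library-to-library spread, possibly technical.

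Yeast cells that meet heat redirect transcription through a few regulators. Hsf1 binds heat shock elements (HSE) before chaperone genes, and Msn2 and Msn4 bind stress response elements (STRE) before many genes when protein kinase A activity drops. Genes for making ribosomes are switched off at the same time, many of them through the PAC and RRPE elements of their promoters, which repressors such as Dot6 and Tod6 and the factor Stb3 read. All counts below are of poly(A)-selected RNA and give relative levels. A smaller amount of RNA per cell and fewer intact cells cannot be told apart in such data, and 50 °C lies above the temperatures at which this yeast grows.

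The 2 libraries taken at 50 °C held 81442848 and 78368620 gene counts, against 76900700 and 71870350 in the libraries at 30 °C. The disaggregase gene HSP104 had 20079 and 15777 CPM at 50 °C, against 144 and 135 CPM at 30 °C. CPM is the count scaled to a fixed size of the TMM-adjusted library, as edgeR gives it, and FPKM are the deposited counts normalised to gene length and sequencing depth. The heat-shocked libraries differed from each other more than the unheated ones: the median SD of log2 CPM over genes was 0.324 at 50 °C and 0.0917 at 30 °C. Of 136 genes of cytosolic ribosomal proteins, 135 were higher in 50 °C library 2 than in 50 °C library 1, with a median log2 ratio of library 1 to library 2 of -1.55. At 30 °C the same median ratio was 0.17. Results on these genes are therefore given with each 50 °C library left out as well.

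Heat changed most of the transcriptome. At an adjusted p under 0.05 (edgeR's quasi-likelihood test, Benjamini-Hochberg over all genes), 1881 genes rose and 1927 fell in XH7 cells at 50 °C. These are 31.3% and 32.0% of the genes tested, 63.3% together. A log2 fold change of at least 2 was reached by 671 that rose and 761 that fell, and one of at least 6 by 43 and 18. The quartiles of the log2 fold change over all genes were -0.99 and 1.00, and the median was 0.01. Scaling by library size alone moved the median by -0.55 and left 31.4% of the calls as rises, as log2 FPKM left 30.6%, against 49.4% with TMM. Every fold change here is relative to the bulk of the RNA, and the calls of small rises depend on that scaling. Some rises of more than 1 on the log2 scale do so too. With TMM 1432 genes rose by at least 1, while library size scaling called 1192 rises of any size. Counts of list members below are read against the 31.3% and 32.0% over all genes.

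The make-up of the messenger pool turned over. Ribosomal protein genes took 0.951% and 3.34% of the counts in the 50 °C libraries, against 25.6% and 25.2% in the 30 °C libraries. A list of 28 chaperone genes, most of them cytosolic and some mitochondrial, took 21.2% and 19.4% at 50 °C, against 1.02% and 0.975% at 30 °C. Small stress proteins (35 genes, of which HSP26 and HSP31 are in the chaperone list too) took 6.47% and 5.88% at 50 °C, against 0.0684% and 0.0723% at 30 °C. Trehalose and glycogen genes took 2.52% and 2.63% at 50 °C, against 0.115% and 0.119% at 30 °C. Genes of ribosome assembly took 0.0292% and 0.0589% at 50 °C, against 1.62% and 1.84% at 30 °C. The libraries of the 2 temperatures did not overlap in any of these 5 lists, which 2 libraries a side meet easily. Elongation and release factors, with 1.52% and 1.42% at 50 °C against 4.33% and 3.93% at 30 °C, did not overlap either. Nor did glycolysis, with 18.0% and 11.7% at 50 °C against 10.2% and 8.66% at 30 °C. In glycolysis the heated libraries lay farther from each other than the nearest heated and unheated ones.

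**Figure D1:**
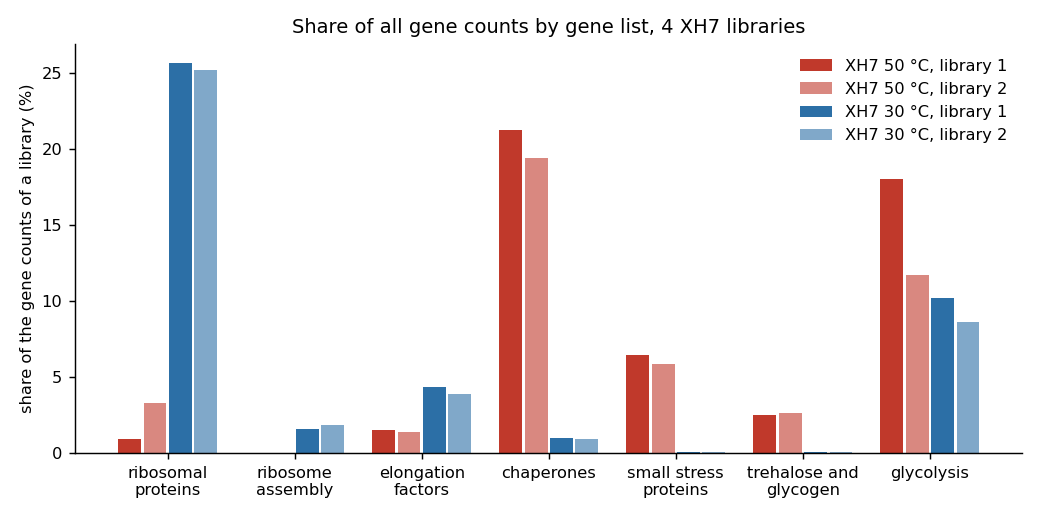
Share of all gene counts (%, y axis, from 0) held by 7 gene lists (x axis) in each XH7 library, with bars for the 50 °C libraries left of those for the 30 °C libraries. Ribosomal protein genes stand at 0.951% and 3.34% at 50 °C against 25.6% and 25.2% at 30 °C, and chaperones at 21.2% and 19.4% against 1.02% and 0.975%.

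A few messages dominated after heat. The 10 most abundant genes held 25.4% and 18.4% of the counts at 50 °C, against 12.4% and 10.6% at 30 °C. By mean FPKM, which is per length, the order at 50 °C began with HSP26, the glycolytic genes PGK1 and TDH3, HSP30, SSA4, HOR7, AHP1 and ENO2. HSP26 (chromosome II, 382030 to 382674), a small Hsp that keeps denaturing proteins from clumping, was at 45844.5 and 28326 FPKM at 50 °C, against 2.54 and 3.49 FPKM at 30 °C. HSP30 (chromosome III, 156109 to 157107), a membrane protein known to restrain the plasma membrane proton pump, was at 16965.5 and 21029 FPKM at 50 °C, against 43.0 and 47.8 FPKM at 30 °C. AHP1 (chromosome XII, 368781 to 369311), a peroxiredoxin, was at 16624 and 14122 FPKM at 50 °C, against 479.8 and 510.3 FPKM at 30 °C. These 3 genes were called as rises, as were 31.3% of all genes tested. Their lack of overlap between temperatures is not particular to them: SSA4 and HSP104 had it too, and 2 libraries a side meet it easily. ENO2 stayed in the first 8 at both temperatures and was not called, with 20068 and 10653 FPKM at 50 °C and 15657 and 12645 FPKM at 30 °C.

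In CPM the largest gains were those of SSA4, PGK1, HSP26, SSA1, HSP30, HSP104, TDH3 and HSP82. SSA4, the strictly heat-induced cytosolic Hsp70, was at 52558 and 30236 CPM at 50 °C, against 30.2 and 28.7 CPM at 30 °C. PGK1, phosphoglycerate kinase, was at 57329 and 24836 CPM at 50 °C, against 11487 and 8354 CPM at 30 °C, a log2 fold change of 2.05 ± 0.41 (± is the standard error throughout). SSA1 has a near-identical copy in SSA2, and TDH3 in TDH2, so reads may be shared between them. The call of TDH3 also ended when 50 °C library 1 or any one 30 °C library of XH7 was left out (largest adjusted p 0.22, edgeR). The largest losses were those of RPL3, RPL2B, RPS31, YEF3, RPS3, CCW12, RPP0 and RPL28, of which 6 are ribosomal protein genes. YEF3, the fungal elongation factor 3 that ribosomes of this yeast need in every cycle, was at 65.0 and 110 CPM at 50 °C, against 4079.5 and 3388 CPM at 30 °C. CCW12, a mannoprotein of the cell wall and the gene of highest FPKM at 30 °C, was at 3173 and 2357 CPM at 50 °C, against 6197 and 5667 CPM at 30 °C. Its call ended without XH7 30 °C library 1 or XH7 50 °C library 2 (largest adjusted p 0.11, edgeR).

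Some promoter elements differed in frequency between classes of heat response. Promoters were read as the 250 bases before to 50 after the annotated start of 5902 coding genes in the R64 genome, and searched on both strands for AGGGG (STRE), GAANNTTC (a pair of HSE units), a run of 3 HSE units in alternate orientation (named the HSE run below), GATGAG (the core of PAC), RRPE by its consensus and TATAAA, a core promoter element. The HSE run contains GAANNTTC, so every promoter with the run also counts for the pair. A pair in the other order, TTCNNGAA, was not searched for on its own. The windows of 6 genes are shown from base -250 to base -51, in lower case, as examples of where the elements lie. Capitals mark the HSE run in HSP42, AGGGG on either strand in HSP12, TSL1 and SSA4, and GATGAG and RRPE on either strand in NSR1 and ERB1.
HSP42, chrIV:806371-806570, plus strand: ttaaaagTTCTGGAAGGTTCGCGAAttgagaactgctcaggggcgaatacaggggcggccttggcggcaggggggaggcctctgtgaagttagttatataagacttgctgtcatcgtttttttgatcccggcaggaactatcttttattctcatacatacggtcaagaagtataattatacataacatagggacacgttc
HSP12, chrVI:107006-107205, plus strand: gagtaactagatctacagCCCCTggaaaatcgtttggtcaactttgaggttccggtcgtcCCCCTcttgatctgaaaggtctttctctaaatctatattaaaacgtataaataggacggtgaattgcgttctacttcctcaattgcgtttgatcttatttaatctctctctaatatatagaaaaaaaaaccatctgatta
TSL1, chrXIII:70374-70573, plus strand: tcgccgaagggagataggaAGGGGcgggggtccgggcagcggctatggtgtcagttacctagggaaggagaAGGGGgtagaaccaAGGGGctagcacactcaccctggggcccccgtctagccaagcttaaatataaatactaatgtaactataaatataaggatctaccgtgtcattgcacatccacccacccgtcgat
SSA4, chrV:364339-364538, plus strand: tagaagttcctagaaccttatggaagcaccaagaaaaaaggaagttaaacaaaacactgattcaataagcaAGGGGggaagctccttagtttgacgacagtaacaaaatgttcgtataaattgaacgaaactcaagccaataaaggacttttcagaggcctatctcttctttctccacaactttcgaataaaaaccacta
NSR1, chrVII:807707-807906, minus strand: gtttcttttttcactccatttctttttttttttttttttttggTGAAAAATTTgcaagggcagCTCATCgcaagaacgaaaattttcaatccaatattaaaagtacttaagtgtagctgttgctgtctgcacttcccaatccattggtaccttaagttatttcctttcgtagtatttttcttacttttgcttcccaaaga
ERB1, chrXIII:370568-370767, minus strand: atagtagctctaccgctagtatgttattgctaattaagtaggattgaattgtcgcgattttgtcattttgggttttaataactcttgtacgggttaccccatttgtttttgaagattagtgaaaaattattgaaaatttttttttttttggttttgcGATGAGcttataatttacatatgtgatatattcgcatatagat
HSP42 is shown because it is the chaperone gene with the largest rise among those with more than 1 match to the HSE run. Its matches, on both strands, overlap in 1 stretch from -243 to -226. HSP12 has STRE at -232 to -228 and -190 to -186, both on the other strand. TSL1 has 3, at -231, -179 and -165. NSR1, a nucleolar protein that binds pre-ribosomal RNA, has RRPE at -207 to -198 and PAC at -187 to -182, and ERB1, a factor of 60S assembly, has PAC at -93 to -88. HSP26 had neither AGGGG nor GAANNTTC in this window, with TATAAA at -154 to -149. No match says only that these letters are not in the window.

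Over all 5902 promoters, STRE letters were in 21.5%, PAC in 20.2%, RRPE in 3.98%, the pair of HSE units in 11.8% and TATA in 45.2%. Among 158 genes that rose by a log2 fold change of at least 4, STRE letters were in 50.6% of promoters, and in 41.0% of the 493 that rose by 2 to 4. They were in 18.5% of 2149 genes that were not called and in 11.5% of 208 that fell by at least 4. PAC went the other way, in 13.9% of the genes that rose by at least 4, 15.5% of those not called, 36.1% of 549 that fell by 2 to 4 and 78.4% of those that fell by at least 4. RRPE letters were in 0 of the 158 genes that rose most, in 1.49% of those not called and in 40.4% of those that fell most. The pair of HSE units as searched decreased over the rises, with 19.0%, 13.8% and 10.1% from the largest to the smallest class. Over the other classes the pair showed no such order. It was in 10.9% of genes not called, in 11.3% and 15.5% of the smaller classes of falls, and in 27 of 208 genes in the largest. Leaving out the lists of ribosome assembly and of RNA polymerases I and III, PAC was still in 69.9% and RRPE in 35.7% of the 143 other genes that fell by at least 4. Leaving out the chaperone, small stress and trehalose lists, STRE was in 47.7% of the 111 other genes that rose by at least 4. These shares describe letters in genes that the heat comparison had called, and no test was made of them.

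**Figure D2:**
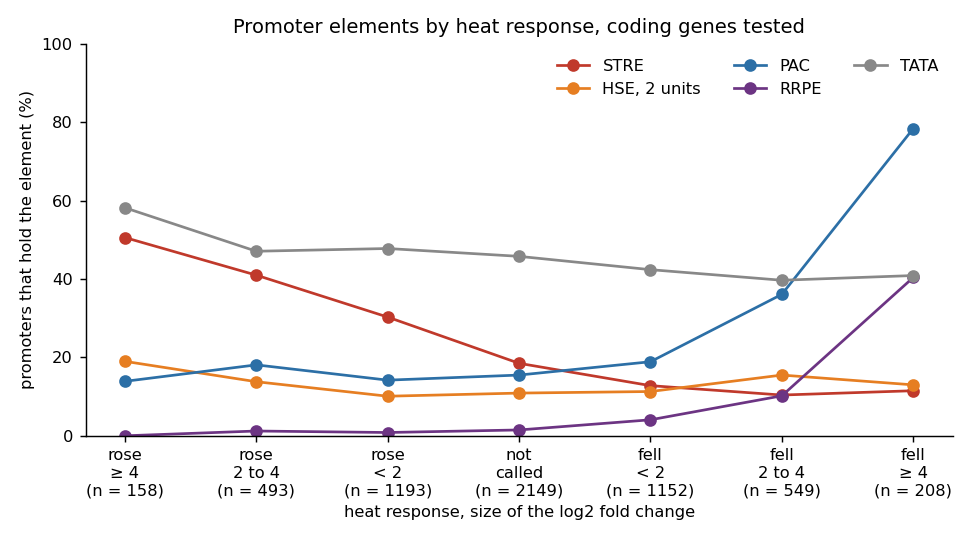
Share of promoters (%, y axis) that hold each element, for coding genes in 7 classes of heat response from the largest rises on the left to the largest falls on the right, with the number of genes under each class. STRE is in 50.6% of the promoters at the left end and 11.5% at the right end, where PAC is in 78.4% and RRPE in 40.4%.

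Median changes by number of copies were as follows. Genes with 0, 1 and at least 2 STRE matches (4633, 1099 and 170 genes) had median log2 fold changes of -0.16, 0.66 and 1.44. Genes with 0, 1 and at least 2 PAC matches (4710, 1017 and 175 genes) had medians of 0.09, -0.39 and -3.23. The pair of HSE units gave medians of 0.01, -0.10 and -0.24 for 0, 1 and at least 2 matches, and TATAAA gave -0.08, 0.08 and 0.07. The HSE run was rare, in 46 promoters. The 38 genes with 1 match had a median of 0.26, and 44.7% of them rose and 39.5% fell. Matches on opposite strands can overlap, as in HSP42. Of the 8 genes with at least 2 matches, 7 rose: HSP42, HSP78, LST8, KAR2, STI1, TAD2 and YGR025W, with BNA1 not called. KAR2 and TAD2 stand head to head, so both windows may read 1 stretch of DNA. Of the 28 chaperone genes, 8 had the HSE run and 11 had STRE.

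Some of the rises came in neighbouring pairs. Of 43 genes that rose by at least 6, 11 had no overlap and a head-to-head neighbour within 1000 bases, and 8 of the 11 neighbours rose, against 31.3% of all genes. HSP12 and the uncharacterised gene YFL015C, 292 bases apart, count for each other. Both were chosen for a rise of at least 6, so their place among the 8 was fixed in advance. The count is therefore not a like comparison with 31.3%, and it was not tested. LST8, a subunit of both TOR kinase complexes, lies 501 bases from SIS1, an essential J-protein, and holds 3 matches to the HSE run in its window. LST8 was at 2764.5 and 1847 CPM at 50 °C, against 34.9 and 31.6 CPM at 30 °C (log2 fold change 6.12 ± 0.32, adjusted p 5e-07, edgeR). SIS1 rose by 5.50 ± 0.24. HSP82 and its neighbour YAR1, an ankyrin protein that guards ribosomal protein S3, rose by 7.23 and 2.79, 858 bases apart. TOF1, a replication fork protein next to GOR1, was the neighbour that fell (-0.83 ± 0.18).

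All 28 genes of the list of Hsp104, Hsp90, Hsp70, small Hsps and their partners, with some of mitochondria, rose, with a median log2 fold change of 4.94, against 0.01 over all genes. The list was written with earlier results of these data known, and other chaperones stand in lists of their own. Its count is therefore not a like comparison with all genes. Of 7 genes of chaperones that sit on the ribosome and meet new chains, 6 fell and none rose (median -2.35). SSB1 and SSB2, the ribosome-bound Hsp70s, differ little in sequence, so their reads may be shared. SSB1 was at 46.1 and 97.0 CPM at 50 °C, against 2748.5 and 2234 CPM at 30 °C, and SSB2 at 58.0 and 110 CPM at 50 °C, against 2096 and 1699 CPM at 30 °C. ZUO1, their J-protein partner, fell by 3.66 ± 0.34 on the log2 scale, and SSZ1 had -2.35. Of 16 genes of the chaperonin TRiC and of prefoldin, which fold actin and tubulin, 11 fell and none rose (median -1.16). CCT8 was at 73.6 and 88.0 CPM at 50 °C, against 315 and 270 CPM at 30 °C.

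J-proteins and nucleotide exchange factors, which steer Hsp70s, went both ways. Lists can share genes, and FES1 of this list also counts in the chaperone list above. Of 25, 12 rose and 5 fell (median 0.62, or -0.02 with library size scaling). APJ1, a J-protein of protein quality control, was at 1682 and 1548 CPM at 50 °C, against 28.6 and 24.1 CPM at 30 °C. The exchange factors SSE2 and FES1 rose by 5.88 ± 0.24 and 5.58 ± 0.27. JJJ1, a J-protein that works on late 60S particles, was at 1.25 and 2.91 CPM at 50 °C, against 24.2 and 33.7 CPM at 30 °C. JJJ3, which serves diphthamide synthesis on elongation factor 2, fell by 3.74 ± 0.50. JJJ2, DJP1 and PAM18 were the others that fell, by 1.73, 1.34 and 1.24 on the log2 scale.

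Of 35 genes of ubiquitin and its ligases, 21 rose and 3 fell (median 0.65). With library size scaling 13 of them rose and 9 fell. UBI4, which encodes a string of ubiquitin units and is the stress source of ubiquitin, was at 2415 and 2152 CPM at 50 °C, against 43.2 and 45.0 CPM at 30 °C (log2 fold change 5.69 ± 0.28). UBC8 and HUL4, a conjugating enzyme and a ligase, rose by 2.40 ± 0.21 and 2.18 ± 0.19. Of 12 genes of vacuolar proteases and their inhibitors, 11 rose (median 2.88). Both named inhibitors were among the largest: TFS1, the inhibitor of carboxypeptidase Y, was at 4350 and 1576 CPM at 50 °C, against 16.2 and 13.7 CPM at 30 °C. PBI2, the inhibitor of proteinase B, rose by 4.27 ± 0.33, close to the 3.80 of PRB1, the proteinase it inhibits.

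Of 36 autophagy genes, 23 rose and 2 fell (median 1.20), the others not being called. ATG41, a partner of Atg9 in autophagosome formation, was at 1661 and 3643 FPKM at 50 °C, against 42.1 and 38.0 FPKM at 30 °C. ATG8, the ubiquitin-like protein that coats the growing membrane, rose by 3.35 ± 0.33, and ATG19, a receptor of selective transport to the vacuole, by 3.06 ± 0.26. ATG9 itself fell by 1.01 ± 0.23 on the log2 scale. The ubiquitin-like ATG12 and its activating and conjugating enzymes ATG7 and ATG10 were not called, with log2 fold changes of -0.78, -0.03 and -0.90.

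Of 18 genes of the RNA exosome and its TRAMP helper, 16 fell and none rose (median -2.16). The helicase MTR4 was at 6.21 and 7.58 CPM at 50 °C, against 205 and 200.5 CPM at 30 °C. TRF5, a poly(A) polymerase of TRAMP, and AIR1, its RNA-binding subunit, had log2 fold changes of -4.46 ± 0.53 and -4.15 ± 0.38. Their close relatives moved less, PAP2 with -1.30 and AIR2 with 0.37, of which only the first was called. Of 34 decapping, deadenylation and nonsense decay genes, 16 fell and 3 rose, and 8, 10 and 10 fell without XH7 30 °C library 2, XH7 30 °C library 1 and XH7 50 °C library 1. EDC2, an activator of decapping, rose against that trend by 3.94 ± 0.21, with 537 and 555 CPM at 50 °C, against 34.0 and 37.3 CPM at 30 °C. DHH1, a helicase of P-bodies, rose by 2.17 ± 0.17.

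**Figure D3:**
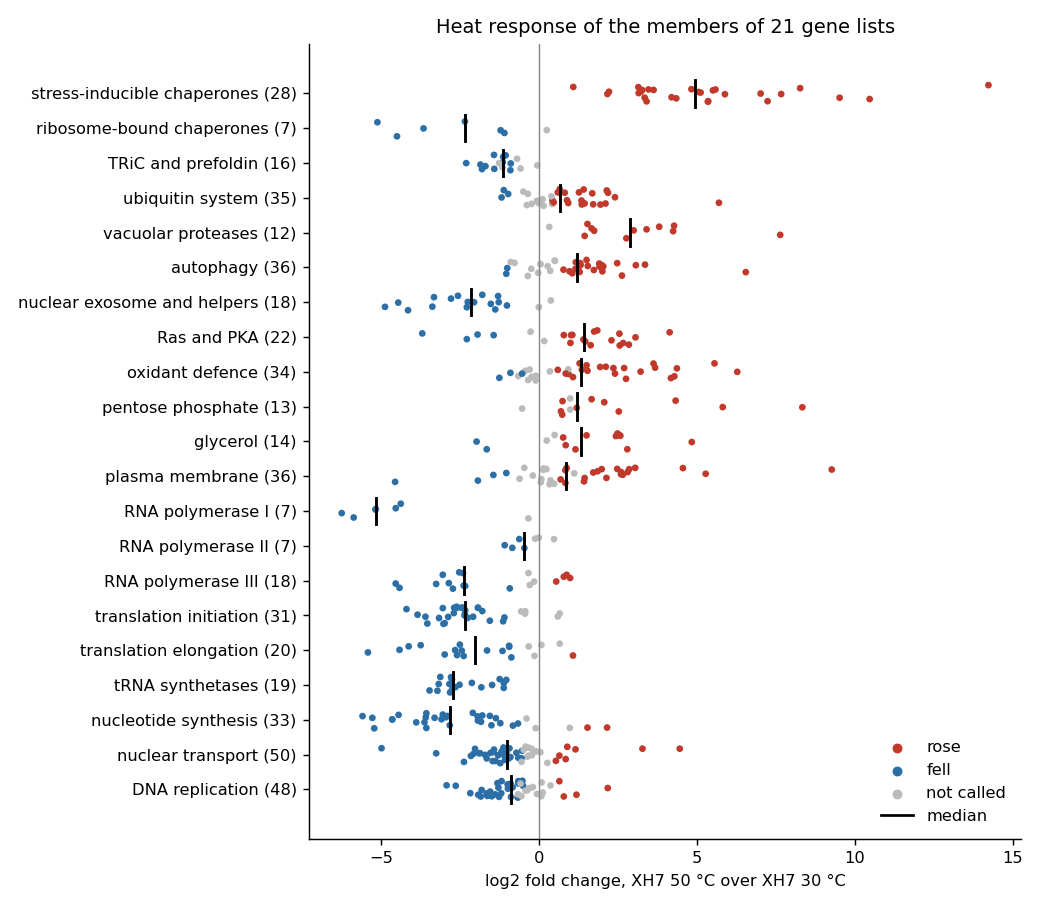
Log2 fold change of each tested member (points, x axis) of 21 gene lists (rows, with the number tested), XH7 50 °C over XH7 30 °C. Points are coloured by call and the bar is the list's median. Chaperones lie to the right (median 4.94), RNA polymerase I (-5.17) and ribosome-bound chaperones (-2.35) to the left.

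The regulators themselves moved unevenly. Of 25 transcription factors of stress, 17 rose and 2 fell (median 1.00), and with library size scaling 11 rose and 4 fell. HSF1 was at 205 and 109 CPM at 50 °C, against 41.2 and 43.2 CPM at 30 °C (log2 fold change 1.90 ± 0.41). MSN2 and MSN4 were not called, with 0.33 ± 0.20 and -0.43 ± 0.35. CIN5, a factor of the Yap family, was at 69.0 and 295 CPM at 50 °C, against 4.46 and 6.41 CPM at 30 °C. USV1, a zinc finger factor of carbon source and salt stress, rose by 4.49 ± 0.35, and NRG2, a repressor of glucose-repressed genes, by 3.61 ± 0.27. RPN4, the proteasome gene activator, rose by 3.53, and MBF1, a coactivator, by 3.15. HOT1 and SKN7, factors of the osmotic and oxidative response, fell by 1.43 ± 0.19 and 1.40 ± 0.21 on the log2 scale.

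Of 23 regulators of carbon use, 7 rose and 6 fell (median 0.17), and with library size scaling 4 rose and 8 fell. ADR1, the activator of alcohol and fatty acid use, was at 471 and 316 CPM at 50 °C, against 7.21 and 8.32 CPM at 30 °C. SIP4, an activator of gluconeogenesis, rose by 5.07 ± 0.43. MIG2, a repressor that acts in the presence of glucose, was at 10.0 and 6.04 CPM at 50 °C, against 164 and 153 CPM at 30 °C. Of 21 factors of ribosomal genes and ribosomal RNA, 9 fell and 2 rose. IFH1, the coactivator of ribosomal protein genes, was at 4.39 and 10.7 CPM at 50 °C, against 94.7 and 113 CPM at 30 °C. TOD6, a repressor that binds PAC, was at 3.21 and 4.36 CPM at 50 °C, against 82.0 and 89.8 CPM at 30 °C. Its relative DOT6 had a log2 fold change of 1.39 ± 0.43, a call that ended when 50 °C library 1 or any one 30 °C library of XH7 was left out (largest adjusted p 0.14, edgeR). STB3, the factor that binds RRPE, was not called (0.78).

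Most genes of the Ras and protein kinase A pathway rose. Of 22, 16 rose and 4 fell (median 1.43). IRA2, which turns Ras off, was at 2394 and 1421 CPM at 50 °C, against 110 and 108 CPM at 30 °C (log2 fold change 4.13 ± 0.31). BCY1, the inhibitory subunit of the kinase, rose by 2.29, and PDE1, which degrades cyclic AMP, by 2.84 ± 0.33. Of its catalytic subunits, TPK2 rose by 2.54 and TPK3 fell by 1.44 on the log2 scale. RAS2 rose by 2.66 ± 0.27 and RAS1 fell by 3.70 ± 0.30 on the log2 scale. SCH9, the kinase through which TOR drives ribosome synthesis, fell by 1.95 ± 0.22.

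All 73 genes of ribosome assembly fell (median -5.12), as did 135 of 136 cytosolic ribosomal protein genes (median -3.10). The second median was -2.54 without XH7 50 °C library 1 and -4.10 without XH7 50 °C library 2, with 135 falls in each case. Of 31 initiation factor genes, 26 fell and none rose (median -2.36). FUN12, the initiation factor that joins the subunits, was at 15.1 and 25.8 CPM at 50 °C, against 380 and 371 CPM at 30 °C. TIF4631, a scaffold of the cap-binding complex, was at 20.2 and 28.3 CPM at 50 °C, against 365 and 336 CPM at 30 °C. The helicase gene DED1, with 0.65, was not called, and neither was DBP1, its relative, with 0.59.

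Of 20 elongation and release factor genes, 15 fell and 1 rose (median -2.02). YEF3 fell by 5.42 ± 0.64 on the log2 scale. TEF1 and TEF2, which share nearly all their sequence and encode elongation factor 1A, were not called (-0.33 and -0.15). EFB1, the exchange factor of that protein, was the 1 that rose (1.07 ± 0.28), a call that ended with library size scaling. EFB1 carries the small nucleolar RNA snR18 in its intron, and counts made without strand or exon information cannot tell these apart. SUP45, the release factor that reads stop codons, fell by 3.75, and its partner SUP35 by 1.16 on the log2 scale. All 19 tested genes of cytosolic aminoacyl-tRNA synthetases fell, with log2 fold changes from -3.47 to -1.04. KRS1, which loads lysine, was at 34.3 and 68.9 CPM at 50 °C, against 604 and 536 CPM at 30 °C.

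Of 7 genes of RNA polymerase I, which makes ribosomal RNA, 6 fell, each by 4.38 to 6.25 on the log2 scale, and RPA14 was not called (-0.34). RPA12 was at 0.495 and 1.57 CPM at 50 °C, against 82.2 and 77.2 CPM at 30 °C. RPA49 was at 2.01 and 4.42 CPM at 50 °C, against 197 and 181 CPM at 30 °C. Of 7 genes of RNA polymerase II, 4 fell and none rose (median -0.47), with RPB3 the lowest at -1.09 ± 0.28. Of 18 genes of RNA polymerase III and the factors that bring it to its genes, 11 fell and 4 rose (median -2.36). The 10 enzyme subunits in the list fell, from RPO31 at -2.34 to RPC53 at -4.54 ± 0.66. TFC1 of the assembly factor TFIIIC fell too, by 0.93 ± 0.17 on the log2 scale, and TFC4 and TFC6 were not called (-0.30 and -0.34). TFC3, TFC7 and TFC8 of the same factor rose, by 0.98 ± 0.18, 0.87 ± 0.16 and 0.78 ± 0.19, and BRF1, which joins the polymerase to the start site, by 0.54. None of these 4 rises was called with library size scaling, and that of BRF1 ended without either XH7 30 °C library, XH7 50 °C library 1 or Z100 30 °C library 3 (largest adjusted p 0.13, edgeR).

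Of 50 pore and transport receptor genes, 32 fell and 7 rose (median -1.01). KAP123, the receptor that imports many ribosomal proteins, was at 7.96 and 11.2 CPM at 50 °C, against 320.5 and 290.4 CPM at 30 °C. SXM1 and NMD5, also import receptors, had log2 fold changes of -3.26 ± 0.41 and -2.38 ± 0.35. Other members rose: KAP95, importin beta, rose by 1.15 ± 0.28 and POM33, a pore membrane protein, by 3.27 ± 0.43.

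Genes for the building blocks of nucleic acids fell with few exceptions. Of 33 in purine and pyrimidine synthesis and salvage, 28 fell and 2 rose (median -2.83). GUA1, which makes GMP, was at 12.8 and 22.2 CPM at 50 °C, against 719 and 640 CPM at 30 °C. URA1, of pyrimidine synthesis, was at 2.54 and 6.99 CPM at 50 °C, against 191 and 166 CPM at 30 °C. ADE16, of the last steps to IMP, rose by 2.15 ± 0.24, with 969 and 697 CPM at 50 °C, against 196 and 180 CPM at 30 °C. Its isozyme ADE17 fell by 2.83 on the log2 scale. Of 48 DNA replication genes, 31 fell and 4 rose (median -0.90). POL1, the catalytic subunit of polymerase alpha, was at 7.79 and 8.05 CPM at 50 °C, against 60.2 and 60.6 CPM at 30 °C. Of 26 cyclin and cell cycle inhibitor genes, 11 fell and 6 rose. The G1 cyclins PCL1 and CLN2 fell by 3.91 ± 0.48 and 2.66 ± 0.32 on the log2 scale, while WHI5, which holds cells in G1, rose by 2.36 ± 0.48.

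Of 34 antioxidant and redox genes, 22 rose and 3 fell (median 1.32), and with library size scaling 18 rose and 8 fell. The cytosolic catalase gene CTT1 was at 766 and 1004 CPM at 50 °C, against 12.6 and 10.4 CPM at 30 °C. AHP1 rose by 5.55 ± 0.33 and PRX1, the mitochondrial peroxiredoxin, by 4.36 ± 0.23. The glutathione synthesis genes did not join: GSH1 was not called (-0.24), and GSH2 had -0.54 ± 0.19, a call that ended when 50 °C library 1 or any one 30 °C library of XH7 was left out (largest adjusted p 0.14, edgeR). Of 13 pentose phosphate genes, the main source of NADPH, 10 rose and none fell (median 1.19), and with library size scaling 7 rose and 1 fell. SOL4, a 6-phosphogluconolactonase, was at 1478 and 878.5 CPM at 50 °C, against 3.60 and 3.72 CPM at 30 °C (log2 fold change 8.33 ± 0.42). SOL3, its relative, had 0.73, a call that ended when 50 °C library 1 or any one 30 °C library of XH7 was left out (largest adjusted p 0.25, edgeR).

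Of 14 glycerol genes, 10 rose and 2 fell (median 1.33). GCY1, a glycerol dehydrogenase of the alternative route, was at 650 and 363 CPM at 50 °C, against 16.5 and 19.0 CPM at 30 °C. GPD1, the first enzyme of glycerol synthesis, rose by 2.79 ± 0.35. Of 5 genes of the GABA shunt, 3 rose and 2 fell (median 2.19). GAD1, glutamate decarboxylase of this shunt, was at 7325 and 3251 CPM at 50 °C, against 25.7 and 22.9 CPM at 30 °C.

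Of 17 genes of fatty acid synthesis and desaturation, 9 fell and 4 rose (median -1.01), with 2 rises when 50 °C library 1 or any one 30 °C library of XH7 was left out. OLE1, the only fatty acid desaturase of this yeast, was at 39.0 and 63.0 CPM at 50 °C, against 1448 and 1384 CPM at 30 °C (log2 fold change -4.79 ± 0.36). FAS2, a fatty acid synthase subunit, had a log2 fold change of -2.78 ± 0.25 and the acyl-CoA synthetase gene FAA4 one of -4.07 ± 0.27. FAA1, the other main acyl-CoA synthetase, rose by 2.12 ± 0.21. Of 26 sphingolipid genes, 12 rose and 6 fell (median 0.58), while library size scaling gave 7 rises and 10 falls (median 0.02). Without XH7 30 °C library 2, 8 rose. ORM2, a brake on the first enzyme of the pathway, was at 1362 and 814 CPM at 50 °C, against 69.3 and 64.7 CPM at 30 °C. The ceramidase genes YPC1 and YDC1 rose by 3.06 ± 0.25 and 3.02 ± 0.30. AUR1, which turns ceramide into complex sphingolipid, fell by 1.78 ± 0.32 on the log2 scale.

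At the cell surface, 20 of 36 genes of the proton pump, eisosomes and drug pumps rose and 4 fell (median 0.85). HSP30 counts in this list and among the small stress proteins. PMA1, the proton pump, was at 3381 and 3097 CPM at 50 °C, against 1277 and 1137 CPM at 30 °C. YRO2, a relative of HSP30, rose by 5.27 ± 0.25 and PDR15, a drug pump, by 4.55 ± 0.30. AQR1, an exporter of acids and amino acids, fell by 4.56 ± 0.34 on the log2 scale. Of 39 cell wall genes, 16 rose and 13 fell (median 0.26), while library size scaling gave 12 rises and 18 falls (median -0.27). SPI1, a wall protein of stationary cells, was at 4104 and 2549 CPM at 50 °C, against 8.31 and 9.01 CPM at 30 °C. SCW11, which daughter cells use to part from the mother, was at 3.22 and 4.72 CPM at 50 °C, against 119.5 and 106 CPM at 30 °C. DSE1, of the same daughter-specific set, was at 6.11 and 32.8 CPM at 50 °C, against 136 and 119 CPM at 30 °C. Of 21 genes of the cell wall integrity pathway, 8 rose and 2 fell (median 0.48). Library size scaling gave 6 rises and 6 falls (median -0.10). ROM1, an activator of Rho1, was at 486 and 470 CPM at 50 °C, against 15.2 and 16.1 CPM at 30 °C. SDP1, a phosphatase of the MAP kinase of the pathway, rose by 4.37 ± 0.29.

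Of 57 isozyme or paralog pairs with both members tested, 12 were called in opposite directions, 19 had both rise, 5 had both fall and 21 had a member that was not called. Over all genes tested 31.3% rose and 32.0% fell, so unrelated genes would often be called in opposite directions too. The pair counts were not tested against that background. Levels within a pair are given in FPKM. RAS1 was at 4.90 and 12.1 FPKM at 50 °C, against 143 and 166 FPKM at 30 °C, while RAS2 was at 322 and 752 FPKM at 50 °C, against 113 and 126 FPKM at 30 °C. ALD6, the cytosolic acetaldehyde dehydrogenase, was at 37.3 and 140 FPKM at 50 °C, against 315 and 333 FPKM at 30 °C. ALD4, the mitochondrial one, was at 170 and 248 FPKM at 50 °C, against 14.2 and 15.8 FPKM at 30 °C. In both pairs the member that was lower at 30 °C was the higher one in each 50 °C library.

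The 2 glycerol-3-phosphatases exchanged places too. GPP1 was at 311 and 299 FPKM at 50 °C, against 1866 and 1712 FPKM at 30 °C, and GPP2 at 452 and 970 FPKM at 50 °C, against 163 and 183 FPKM at 30 °C. Of the cytosolic thioredoxins, TRX1 was at 234.5 and 473 FPKM at 50 °C, against 1214 and 1178.5 FPKM at 30 °C, and TRX2 at 1008 and 834 FPKM at 50 °C, against 263 and 261 FPKM at 30 °C. URA7, the main CTP synthase, was at 1.39 and 2.89 FPKM at 50 °C, against 152 and 140 FPKM at 30 °C. URA8, the minor one, was at 140 and 73.8 FPKM at 50 °C, against 58.9 and 55.6 FPKM at 30 °C, a rise whose call ended when 50 °C library 1 or any one 30 °C library of XH7 was left out (largest adjusted p 0.17, edgeR). HXT1 and HXT5, low- and moderate-affinity hexose transporters, had log2 fold changes of -3.58 ± 0.45 and 2.92 ± 0.53. LCB4 and LCB5, sphingoid base kinases, had -1.15 ± 0.26 and 2.08 ± 0.20.

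RPL15B was the only ribosomal protein gene that rose. It was at 90.9 and 136 FPKM at 50 °C, against 69.7 and 69.3 FPKM at 30 °C, a log2 fold change of 1.24 ± 0.20 on TMM-scaled counts. Its twin RPL15A, for the same protein eL15 of the large subunit, was at 132 and 379 FPKM at 50 °C, against 5170 and 5040.5 FPKM at 30 °C. The twins thus came within 1 order of magnitude of each other after heat. The rise of RPL15B was not called with library size scaling. PFK27 and PFK26, which make the glycolytic activator fructose 2,6-bisphosphate, had log2 fold changes of -0.98 ± 0.18 and 3.20 ± 0.24. RNR1 and RNR3, large subunits of ribonucleotide reductase, had -1.53 ± 0.31 and 2.17 ± 0.43, and the metalloreductases FRE1 and FRE7 had -2.37 ± 0.21 and 0.94 ± 0.24. The call of FRE7 ended without XH7 50 °C library 1 (largest adjusted p 0.058, edgeR).

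**Figure D4:**
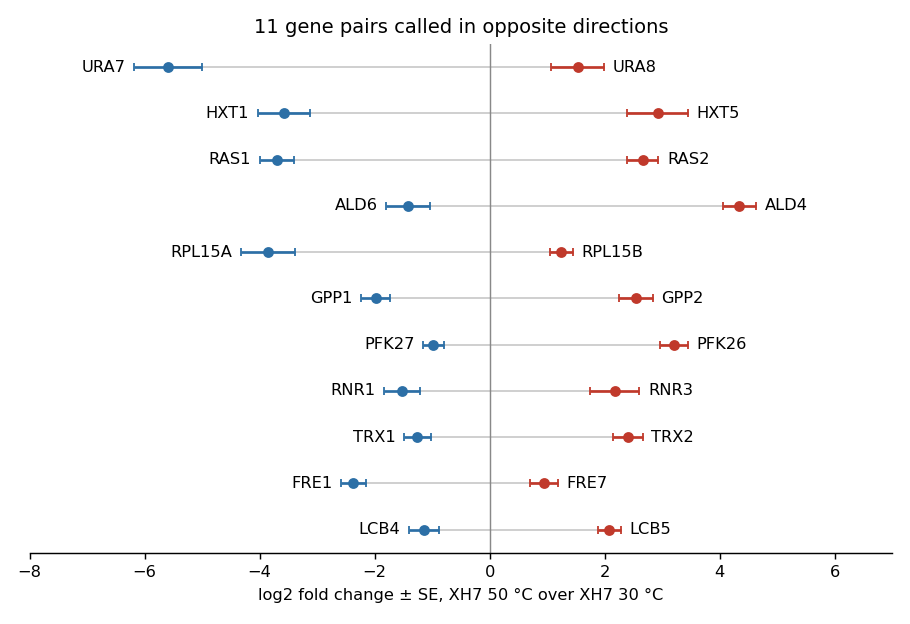
Log2 fold change with standard error (x axis, XH7 50 °C over XH7 30 °C) of both members of 11 of the 12 isozyme pairs called in opposite directions, ordered by the distance between the members. URA7 and URA8 lie farthest apart, at -5.59 and 1.53.

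In 15 further pairs 1 member rose and the other was not called. HXK1, hexokinase 1, rose by 5.02 ± 0.25 beside HXK2 at -0.39, CYC7, the second cytochrome c, by 5.50 beside CYC1 at -0.13, and GSP2, the second Ran protein, by 4.45 ± 0.28 beside GSP1 at -0.56. Enolase ENO1 rose by 2.71 beside ENO2 at 0.74, and pyruvate kinase PYK2 by 3.20 beside CDC19 at -0.02. These examples were chosen after their values were seen.

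Genes without a symbol in the tables rose more often than they fell. Of 898 tested, 37.3% rose and 18.8% fell. The calls also varied with level: of the 1476 genes of lowest FPKM at 30 °C, 41.6% rose and 11.7% fell. Of the 1476 genes of highest FPKM at 30 °C, 23.6% rose and 51.8% fell. Whether genes without a symbol differ from other genes of like level was not tested. YJL144W, which encodes a hydrophilic protein tied to drying tolerance, was at 279.5 and 420 CPM at 50 °C, against 2.13 and 1.69 CPM at 30 °C. The neighbours YNL194C and YNL195C rose by 6.19 ± 0.49 and 6.25 ± 0.39, and YDL124W, an aldo-keto reductase, by 6.10 ± 0.32. YCL042W overlaps the glucokinase gene GLK1, and its counts cannot be told from those of that gene. YDR210W, which overlaps YDR209C, was at 0.0319 and 20.3 CPM at 50 °C, against 0 in both 30 °C libraries. Its call ended without XH7 50 °C library 2 or either XH7 30 °C library. Of those that fell, YBL028C was at 0.638 and 1.59 CPM at 50 °C, against 58.1 and 71.6 CPM at 30 °C, and YCR016W at 1.08 and 2.90 CPM at 50 °C, against 56.2 and 78.0 CPM at 30 °C.

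Of 271 tested coding genes with an intron, 49.8% fell. All 89 ribosomal protein genes among these fell, with a median log2 fold change of -3.05, and so did 46 of the 47 ribosomal protein genes without one (median -3.16). Of the 182 other genes with an intron, 25.3% fell and 27.5% rose, with a median of -0.02. Place on the chromosome showed a smaller contrast: of 219 genes within 20 kb of a chromosome end, 35.6% rose and 13.7% fell. As for genes without a symbol, a comparison with other genes of like level was not tested.

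Among the genes that differed most between the 50 °C libraries, RPR1, the RNA of ribonuclease P, was at 297 and 61.9 CPM at 50 °C, against 13.68 and 12.02 CPM at 30 °C. The transcribed spacers ITS1 and ETS1_1 of ribosomal RNA, which have copies in the table, were higher in 50 °C library 1 as well, with 374 and 93.9 CPM for ITS1 and 1005 and 260 CPM for ETS1_1. Ribosomal protein genes led in the other direction. RPL31A was at 52.7 and 391.5 CPM at 50 °C, against 1389 and 1461 CPM at 30 °C, and RPL22A at 21.6 and 133 CPM at 50 °C, against 1250 and 1241 CPM at 30 °C. Both 50 °C libraries were below both 30 °C libraries in each of these ribosomal protein genes, so that the libraries differed in how far the genes had fallen.

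**Figure D5:**
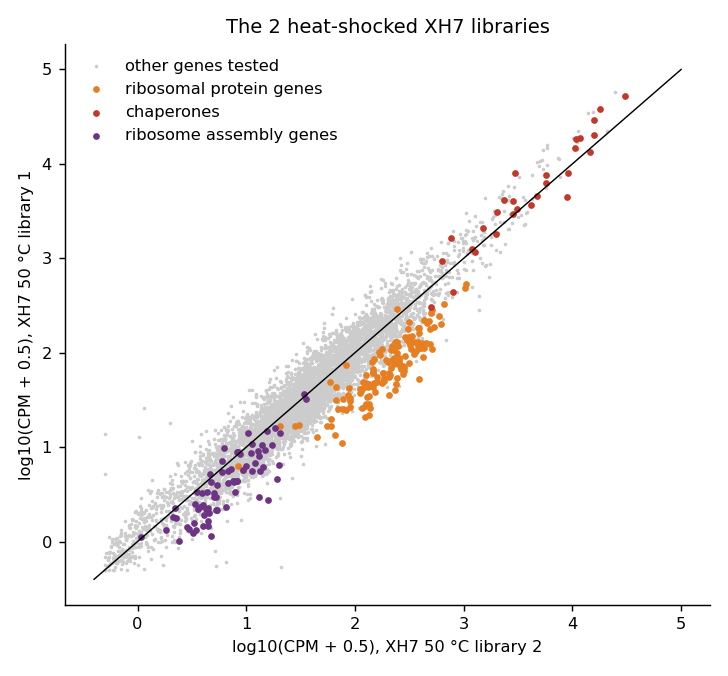
Levels in XH7 50 °C library 1 (y axis) against XH7 50 °C library 2 (x axis), both as log10(CPM + 0.5), for all genes tested. Colours mark ribosomal protein, chaperone and ribosome assembly genes, and the line marks equal levels. Of 136 ribosomal protein genes, 135 lie under it, while 19 of 28 chaperone genes lie above it.

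Set against the heat response of Z100, measured with 3 libraries a group, the response of XH7 differed in part of the genes. The difference between the responses was called for 257 genes, 4.27% of those tested, with a higher log2 fold change in XH7 for 159 (2.64%) and a lower one for 98 (1.63%). These counts rested on single libraries: 2 genes were called without XH7 30 °C library 2 and 1065 without XH7 50 °C library 2. Among the genes with the largest differences, IGD1, an inhibitor of glycogen debranching, rose by 6.40 in XH7 and by 3.84 ± 0.46 more than in Z100, where the log2 fold change was 2.56 (adjusted p 0.0058, edgeR). HXT3, a low-affinity hexose transporter, was at 227 and 641 CPM in XH7 at 50 °C, against 3053 and 2799 CPM in XH7 at 30 °C, a log2 fold change of -2.75, against -6.48 in Z100 (adjusted p of the difference 0.0085, edgeR). CUR1, a sorting factor for misfolded proteins, was at 438 and 802 CPM in XH7 at 50 °C, against 21.2 and 22.7 CPM in XH7 at 30 °C, a log2 fold change of 4.82, against 7.34 in Z100 (adjusted p of the difference 0.026, edgeR). Of the lists above, trehalose and glycogen held 6 of 21 genes whose response was called as different between the strains, chaperones 4 of 28, ribosome assembly 1 of 73, ribosomal proteins 0 of 136 and RNA polymerase I 0 of 7. A gene that was not called is not shown to respond alike.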

How the data were processed

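RNA-seq of poly(A)-selected RNA was made with an unstranded kit, per the labels' protocols. The authors deposited raw counts per gene and FPKM per gene, with the aligner and the counter not given in the sources used here. Only genes, libraries and annotation in the deposited tables and the RefSeq R64 genome were used. The members and gene lists were chosen with earlier results of these data known. Counts were fitted in R 4.3.3 with edgeR 4.0.16 (TMM scaling, filterByExpr, quasi-likelihood F test, 1 mean for each of 4 groups over all 10 libraries, so that both strains share the estimate of spread). P-values were adjusted by Benjamini-Hochberg over 6015 genes, with a call at an adjusted p under 0.05. Standard errors were taken as the size of the log2 fold change over the square root of its F statistic. They therefore rest on the spread shared by all groups and are not the spread of the XH7 libraries alone. DESeq2 1.42.0 and limma 3.58.1 gave alternatives, and FPKM were tested as log2(FPKM + 1), which understates changes of low genes. The edgeR fit of heat in XH7 was tested on simulated counts in which few genes changed. That did not test the scaling when most genes change, the comparison with Z100, the promoter search or the list counts. A count of 0 allows up to 3 counts, for counting error only.

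The text names, by rule, the genes with the largest gain and loss of CPM, up to 3 called members in each direction of each list (at least 10 CPM in the higher group), genes without a symbol with the largest changes, isozyme pairs called in opposite directions, genes with the largest difference from Z100, those of highest FPKM, and those that split the 50 °C libraries most. Other list members, the head-to-head neighbours and the HSP42 promoter were chosen after their values were seen. Of 6059 genes, 6056 were found in RefSeq R64. Genes with a copy of at least 95% identity were found with BLAST+ 2.17.0. The replicate numbers did not pair the XH7 libraries by any label. One gene and the isozyme pair it belongs to are not reported here.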

Additional observations from a re-analysis of the deposited data

Results flagged for a closer look

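The heat response was called as different between XH7 and Z100, by the interaction test of edgeR, for 24 genes named here or by the rule on strain differences. Each value is the log2 fold change in XH7 minus that in Z100. Among genes with a higher log2 fold change in XH7, the difference was 3.87 for PCK1, 3.84 for IGD1, 3.84 for ICL2, 3.73 for HXT3, 3.42 for PDH1 and 3.39 for HXT2. It was 3.18 for TSL1, 2.59 for GLK1, 2.47 for HSP30, 2.43 for GAD1, 1.82 for HSP42, 1.80 for AHP1, 1.58 for GSP2, 1.44 for HXK1 and 1.35 for PRX1. Among genes with a lower one in XH7, it was -2.52 for CUR1, -2.43 for KEL3, -2.06 for IPI3, -2.01 for ANB1, -1.88 for SNM1 and -1.87 for LRP1. It was -1.51 for YAR1, -1.28 for TOF1 and -1.10 for TAD2. PCK1 had a log2 fold change of 0.30 in XH7 and -3.58 in Z100, and TOF1 had -0.83 in XH7 and 0.45 in Z100. The adjusted p-values of these differences lay between 0.0013 (PDH1) and 0.047 (YAR1). Such calls depended on single libraries. Most of the differences named by the rule became weaker when unheated library 2 of XH7 was left out, which leaves 1 library in that group. Over all genes tested, 257 differences were called with every library, and 57 without unheated library 3 of Z100.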

How the results depend on the processing

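The 3808 calls of heat in XH7 numbered 3469 to 3987 under other tools, scalings and filters, 3408 (1654 rises and 1754 falls) with the XH7 libraries fitted alone, and 2047 (995 rises and 1052 falls) when tested against a log2 fold change of 1. Rises numbered 1192 with library size scaling and 1197 with log2 FPKM. Those settings moved the median of all genes by -0.55 and -0.56, and upper quartile factors and 4 reference genes by -0.13 and 0.18. One of the reference genes, TFC1, was itself called as a fall, with -0.93. Leaving out each library gave 3053 to 3940 calls, 1468 to 2042 rises and 1585 to 1988 falls. With the replicate block 3787 genes were called (1844 rises, 1943 falls). BRF1, called as a rise, had -0.02 with library size scaling and -0.02 with log2 FPKM. The difference from Z100 (257 genes, 159 higher and 98 lower in XH7) came to 841, 482 and 359 with DESeq2, 142, 93 and 49 with voom group weights, 52, 37 and 15 with reference genes, and 23, 19 and 4 against a log2 difference of 1. With the replicate block it came to 152, 103 and 49. Library size scaling gave 299 higher and 39 lower, and log2 FPKM 314 and 59. Leaving out each library gave 2 to 1065 genes, 2 to 639 higher and 0 to 426 lower. The cause was not tested. Deviations of same-numbered libraries correlated at 0.121 between the XH7 groups, and at 0.635 and 0.529 between XH7 and Z100 at 50 °C for numbers 1 and 2. No label says that a number marks a shared culture or batch.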
